A study of Mus musculus with 16 samples.

Results

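The genes described here were grouped under the shut-off of the odorant response of olfactory sensory neurons, calcium extrusion and phosphodiesterases. They were chosen by name, 8 in all: the phosphodiesterases Pde1c and Pde4a, the signalling regulator Rgs2, the arrestin Arrb2, the exchangers Slc24a4, Slc8a1 and Slc8a3, and the creatine kinase Ckb. These genes and the lists set beside them were picked with earlier results of these data known, which no p-value here allows for. Of these 8, 7 were measured among the 19505 genes of the arrays, and Arrb2 was not analysed here. A signal is given in log2 units, and 6.20 log2, the middle value of the 5222 negative-control probe sets, is taken as the background. Of the 7 genes, 6 lay above it in at least 1 group of arrays, while Slc8a3 lay under it on all 16 arrays. The signal of one gene cannot be set against that of another on these arrays, so each gene is compared only with itself.

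The arrays come from 24 mice of both sexes, 7 to 12 weeks old, that all carried the S100a5-tauGFP reporter, in which a green fluorescent protein marks cells that transcribe S100a5. S100a5 is a calcium-binding protein that olfactory sensory neurons make in response to their own activity. Each mouse sat alone in a chamber for 40 h at an air flow of 3.1 L per min, and from 26 h on it received a pulse of 10 s every 20 min. The pulse was octanoic acid, a fatty acid odorant, in one treatment and filtered clean air, the vehicle, in the other. Olfactory mucosa of 3 mice made 1 pool, and sorting split each of the 8 pools into GFP+ and GFP- cells, for 16 Clariom S arrays, 4 in each group. GFP- cells are every cell that passed the sort without GFP, neurons and others. Pools and not mice are the replicates, and precision is limited by there being 4 of them per treatment, since an array has no sequencing depth. One array stood apart: the GFP+ array of octanoic acid pool 3 had a mean correlation of 0.976 with the others of its group, which had 0.986 each, and its sustentacular cell genes averaged 9.74 log2 against 7.64 to 8.11 log2.

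An odorant receptor raises cyclic AMP through a G protein and adenylyl cyclase, and cyclic AMP opens a channel that lets calcium into the cilium. The response ends when cyclic AMP is broken down by phosphodiesterases, when arrestin and kinases silence the receptor, and when exchangers push calcium out again. Pde1c is a calcium- and calmodulin-dependent enzyme of the cilia. Pde4a is a cyclic AMP-specific enzyme found outside the cilia of these neurons. Rgs2 is a regulator of G-protein signalling that has been described to slow the adenylyl cyclase of olfactory neurons. Slc24a4, also known as NCKX4, is the sodium, potassium and calcium exchanger that terminates the olfactory response, and Slc8a1 and Slc8a3 are sodium and calcium exchangers. Ckb is the brain-type creatine kinase, which regenerates ATP and is abundant in olfactory neurons.

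Cyclic AMP also acts on genes, so the stretch upstream of each start was searched for the cAMP response element TGACGTCA, for its core TGACG, for the Olf/EBF site TCCCNNGGGA and for the homeodomain core TAATTA. The windows are those of RefSeq on GRCm38.p6, from 250 bases before to 50 after a start, on both strands, and 7 of the 8 genes have 11 windows. No window of these genes held TGACGTCA, TCCCNNGGGA or TAATTA, which occur in 1.79%, 0.904% and 5.29% of all 32851 windows. The core TGACG, which is part of TGACGTCA and was searched after the other motifs, occurred in 3 of the 11 windows and in 20.8% of all windows. Those 3 windows, of Rgs2, Pde4a and Slc8a3, are printed with the match in capitals, beside that of Slc8a1, the gene with the largest rise in GFP+ cells. Each run is the 200 bases before the start, 5′ to 3′ on the strand of the gene.
Rgs2, chr1:144004150-144004349, minus strand: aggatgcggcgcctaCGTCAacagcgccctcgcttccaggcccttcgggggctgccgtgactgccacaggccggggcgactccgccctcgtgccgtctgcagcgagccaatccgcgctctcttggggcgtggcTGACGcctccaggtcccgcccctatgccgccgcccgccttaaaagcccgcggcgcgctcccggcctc
Pde4a, chr9:21183901-21184100, plus strand: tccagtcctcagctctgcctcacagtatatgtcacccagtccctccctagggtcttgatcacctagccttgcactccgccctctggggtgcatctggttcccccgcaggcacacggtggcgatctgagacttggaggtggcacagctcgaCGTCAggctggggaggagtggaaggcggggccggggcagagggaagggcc
Slc8a3, chr12:81333181-81333380, minus strand: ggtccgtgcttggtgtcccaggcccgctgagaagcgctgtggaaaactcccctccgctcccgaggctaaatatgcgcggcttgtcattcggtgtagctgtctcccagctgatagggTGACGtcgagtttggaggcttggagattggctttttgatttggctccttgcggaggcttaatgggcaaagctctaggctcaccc
Slc8a1, chr17:81738388-81738587, minus strand: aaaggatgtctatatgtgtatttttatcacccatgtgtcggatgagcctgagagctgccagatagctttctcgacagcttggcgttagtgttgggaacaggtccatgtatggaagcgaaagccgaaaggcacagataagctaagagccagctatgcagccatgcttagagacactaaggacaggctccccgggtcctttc

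Rgs2 held the core at 2 places, from -185 to -181 on the minus strand and from -67 to -63 on the plus strand, counted back from the start. The Pde4a window, 1 of its 3, held it from -50 to -46 on the minus strand, and Slc8a3 from -84 to -80 on the plus strand. The 200 bases of Rgs2 had a GC content of 73.5% and 26 CpG pairs, against medians of 53.0% and 5 over all windows, while those of Slc8a1 had 49.5% and 6. These are matches of letters in a short window, and no binding was measured.

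Over both treatments 5 of the 6 genes above the background rose in GFP+ cells and 1, Rgs2, fell, while 13.1% of all genes rose and 13.6% fell. The largest rise was that of Slc8a1, 2.24-fold, followed by Pde1c, 1.74-fold, Ckb, 1.64-fold, Slc24a4, 1.57-fold, and Pde4a, 1.55-fold. Rgs2 signal dropped at least 7.74-fold. In bulk samples of this kind, fewer cells of a type and less RNA per cell cannot be told apart.

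**Figure D1:**
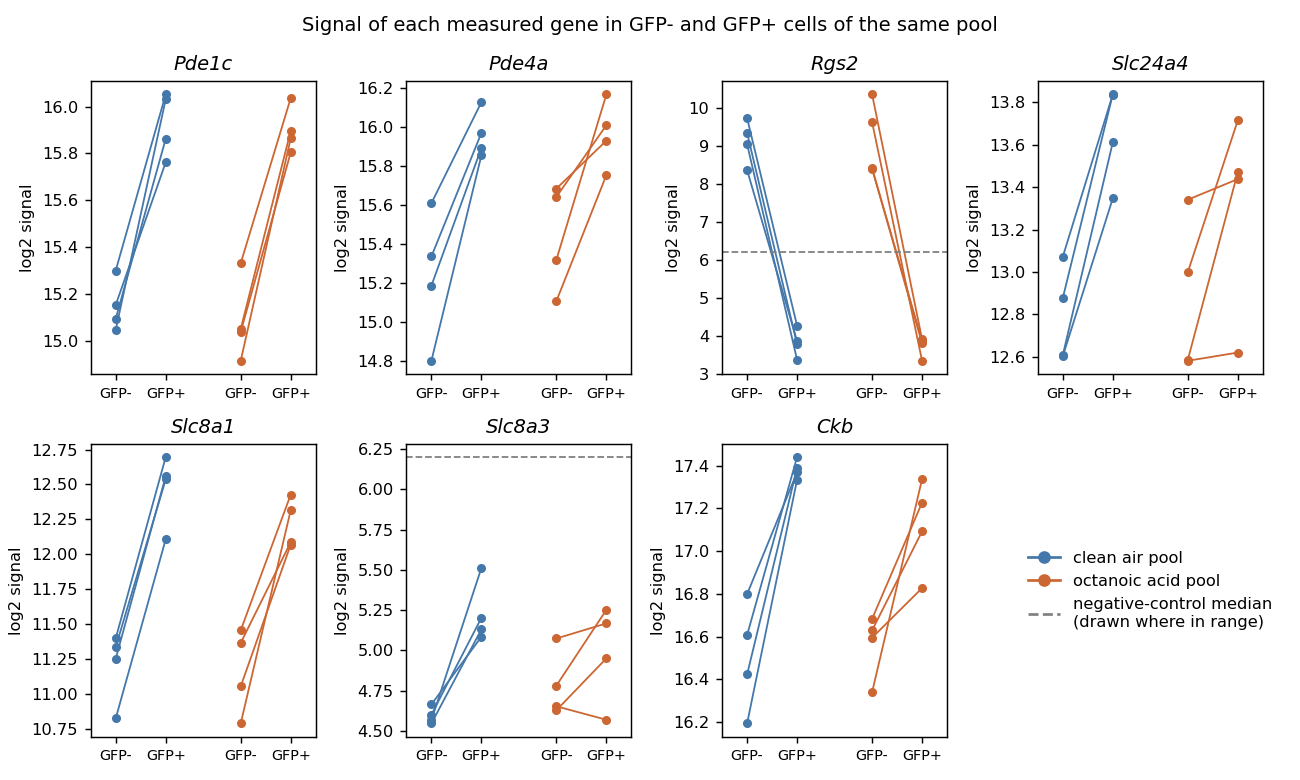
The log2 signal (y axis, a separate range for each gene) of the 7 measured genes is plotted for GFP- and GFP+ cells, with a line joining the arrays of 1 pool, clean air in blue and octanoic acid in orange. Lines run upward in every pool for Pde1c, Pde4a, Slc24a4, Slc8a1 and Ckb and downward for Rgs2, and Slc8a3 stays under the background of 6.20 log2, drawn as a dashed line.

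Among the phosphodiesterases, Pde1c differed between the sorts by much the same amount in every pool. In clean air its 4 GFP- arrays read 15.10, 15.15, 15.30 and 15.05 log2, and its 4 GFP+ arrays 15.86, 15.76, 16.05 and 16.03 log2. With octanoic acid it read 15.33, 15.05, 15.04 and 14.92 log2 in GFP- cells and 16.04, 15.90, 15.80 and 15.86 log2 in GFP+ cells. All 8 GFP+ arrays lay above all 8 GFP- arrays, and the mean difference, GFP+ minus GFP- of the same pool, was 0.78 ± 0.15 log2 in clean air (SD, n = 4) and 0.82 ± 0.11 log2 with octanoic acid (SD, n = 4). In limma's fit across all genes the adjusted p was 0.0019 and 0.00126. In clean air 5.83% of all 19505 genes were called higher in GFP+ cells and 9.58% lower, and with octanoic acid 6.26% and 10.9%. In order of the mean, Pde1c went from 15.93 log2 in GFP+ cells in clean air through 15.90 in GFP+ cells with octanoic acid and 15.15 in GFP- cells in clean air to 15.08 in GFP- cells with octanoic acid. Within each sort the neighbours in that order differed by less than their SD of 0.10 to 0.18 log2.

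Pde4a also gave more signal in GFP+ cells, with a wider spread in GFP- cells. The GFP- arrays of clean air read 15.34, 15.19, 15.61 and 14.80 log2 and the GFP+ arrays 15.97, 15.89, 16.13 and 15.86 log2. For octanoic acid the values were 15.64, 15.68, 15.11 and 15.32 log2 in GFP- cells and 16.01, 15.93, 15.75 and 16.17 log2 in GFP+ cells. The sorts did not overlap in either treatment, with the lowest GFP+ array at 15.75 log2 and the highest GFP- array at 15.68 log2. The difference was 0.73 ± 0.23 log2 in clean air (SD, n = 4, limma adjusted p = 0.00756) and 0.53 ± 0.27 log2 with octanoic acid (SD, n = 4, adjusted p = 0.0404). The second of these calls was close to the threshold of 0.05. Of 19 settings the first call held in 17 and the second in 10. Without clean air pool 4 the first had an adjusted p of 0.0511, and the second was lost when any 1 of 6 pools was left out: octanoic acid pool 1 (0.0722), 3 (0.114) or 4 (0.188) and clean air pool 1 (0.0606), 2 (0.0613) or 3 (0.0524). It was also lost with arrays centred on the odorant receptor genes (0.0661) and with no pairing by pool (0.0596). Without octanoic acid pool 3 and clean air pool 4 together, left out after the data were seen, neither call held (0.0543 and 0.108). The mean over both treatments, 0.63 log2, kept an adjusted p of at most 0.0122 in all 19 settings tried.

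The other phosphodiesterases moved in both directions. Of 21 measured members of a list without Pde1c and Pde4a, 5 rose and 5 fell in GFP+ cells over both treatments, against 13.1% and 13.6% of all genes. The median of the list was 0.09 log2 against 0.12 log2 over all genes. Of the 5 that rose, 3 were above the background in at least 1 group. Pde7b, a cyclic AMP-specific enzyme, rose by 0.71 log2 (1.63-fold, adjusted p = 0.000751). Pde6d, a carrier of prenylated proteins, rose by 0.34 log2 (1.26-fold, adjusted p = 0.0326). Pde10a rose at least 1.43-fold (adjusted p = 0.00541) from a level under the background in GFP- cells. The largest fall was that of Pde2a, the cyclic GMP-stimulated enzyme known from guanylyl cyclase D neurons (-3.48 log2, 11.2-fold, adjusted p = 6.69e-08). Pde8a fell 6.09-fold (adjusted p = 2.14e-07), and Pde4b, the form known from leukocytes, fell at least 3.88-fold (adjusted p = 2.92e-07).

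Rgs2 gave the only fall among the 7 genes. In clean air it read 8.36, 9.04, 9.34 and 9.72 log2 in GFP- cells and 3.87, 3.38, 3.78 and 4.27 log2 in GFP+ cells. After octanoic acid it read 8.39, 9.62, 8.41 and 10.35 log2 in GFP- cells and 3.81, 3.35, 3.87 and 3.91 log2 in GFP+ cells. Every GFP- array was above the background and every GFP+ array under it, so the fold is a lower bound, taken with the arrays under the background raised to it. Even the highest GFP- value, 10.35 log2, lay under 10.4 log2, which 5% of negative controls exceeded. In clean air the Rgs2 signal dropped at least 7.54-fold from GFP- to GFP+ cells (log2 difference -5.29 ± 0.54, SD, n = 4, adjusted p = 4.87e-07) and with octanoic acid at least 7.95-fold (-5.46 ± 1.03, SD, n = 4, adjusted p = 3.59e-07). With all values under the background raised to it, the difference over both treatments was -2.95 log2 (adjusted p = 0.000663).

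Leukocyte and neutrophil genes were lower in GFP+ cells, as Rgs2 was. All 10 leukocyte genes and all 13 neutrophil genes of 2 marker lists fell in GFP+ cells, with medians of -5.53 and -7.82 log2. The mean of the neutrophil genes ran from 12.46 to 15.13 log2 on GFP- arrays and from 5.73 to 7.47 log2 on GFP+ arrays, and that of the leukocyte genes from 10.46 to 12.60 log2 and from 5.96 to 6.87 log2. Other cell type lists fell in part or in full, where 13.6% of all genes fell. These were 7 of 7 macrophage genes (median -1.14 log2), 7 of 7 microvillous cell genes (-1.84 log2) and 6 of 9 immature neuron genes (-1.06 log2). So did 3 of 8 sustentacular cell genes (-0.80 log2), 3 of 6 Bowman gland genes (-0.66 log2), 3 of 6 B cell genes (-0.77 log2) and 2 of 3 erythroid genes (-1.59 log2). Of the progenitor genes 2 of 6 fell (-0.01 log2), and of the ensheathing glia genes 1 of 4 (-0.21 log2). Of 7 endothelial and mural genes 3 fell, all under the background, and 1 rose (median 0.06 log2). In GFP+ cells 6 of the 13 neutrophil genes had a group mean under the background in each treatment. The mature neuron genes, 11 of 11 above the background in all 4 groups, had array means of 16.63 to 16.95 log2 in GFP- cells and 16.89 to 17.14 log2 in GFP+ cells.

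Over the 8 GFP- arrays Rgs2 was higher where the neutrophil genes were higher. Pearson's r was 0.923 (exact permutation p = 0.000769) and Spearman's rho 0.929 (exact permutation p = 0.00223). The Benjamini-Hochberg value over 15 lists tried was 0.00707, and r was 0.878 without the 2 arrays farthest from the median. For the leukocyte genes r was 0.872 (exact permutation p = 0.00513, adjusted 0.0192) and rho 0.905 (exact permutation p = 0.00456), with r at 0.717 without the 2 farthest arrays. The erythroid list, of 3 measured genes, gave r = 0.929 (exact permutation p = 0.000942, adjusted 0.00707) and rho = 0.929 (exact permutation p = 0.00223), and 0.874 without the 2 farthest. The Bowman gland list, which holds the lysozyme gene Lyz1, gave r = 0.905 (exact permutation p = 0.003, adjusted 0.015) and rho = 0.952 (exact permutation p = 0.00114), and 0.877 without the 2 farthest. The other 11 lists had adjusted values of 0.0561 or more, the lowest being the immediate early genes with r = 0.822. Among these 11 were 2 further lists of blood cells. The macrophage list gave r = 0.581 (exact permutation p = 0.131, adjusted 0.246), and 0.15 without the 2 farthest. The B cell list gave r = -0.262 (exact permutation p = 0.548, adjusted 0.587). Each treatment has 4 GFP- arrays, too few for values within it. The part of these cells in the Rgs2 difference was not tested.

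**Figure D2:**
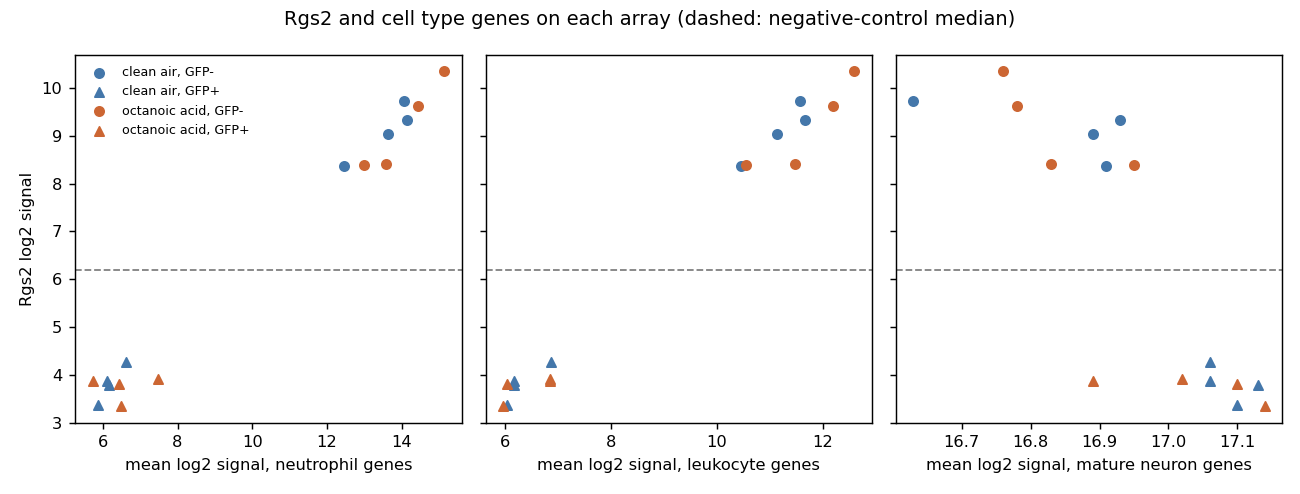
Rgs2 signal (y axis, log2) is plotted against the mean log2 signal of the neutrophil, leukocyte and mature neuron genes (x axes, ranges differ), 1 point per array, circles for GFP- and triangles for GFP+, blue for clean air and orange for octanoic acid. GFP- arrays with more neutrophil or leukocyte signal have more Rgs2 signal, from 8.36 to 10.35 log2, and all GFP+ arrays lie under the background, drawn as a dashed line.

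Rgs2 was not alone in its family. Of 20 other measured RGS genes, 8 fell and 2 rose over both treatments, against 13.6% and 13.1% of all genes, with a median of 0.00 log2. Rgs13 fell at least 21.7-fold (-4.70 log2, adjusted p = 4.23e-09), Rgs5 fell 15.0-fold (-3.91 log2, adjusted p = 8.42e-09) and Rgs18, known from platelets and leukocytes, fell at least 7.22-fold (adjusted p = 4.24e-06). Rgs7, a neuronal member that acts with a G-protein beta subunit, rose 2.12-fold (1.08 log2, adjusted p = 0.000272). Rgs8 was called higher too, by 0.82 log2 (adjusted p = 0.00313), but both sorts were at the background.

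Receptor kinases and arrestins other than Arrb2 were few and mostly dim, with 4 of 8 above the background in any group. Over both treatments 1 of the 8 rose and 3 fell, against 13.1% and 13.6% of all genes. Arrb1, the other beta-arrestin, fell at least 2.88-fold (-1.64 log2, adjusted p = 0.000205), and Grk6, a receptor kinase of many tissues, fell 2.59-fold (adjusted p = 2.94e-05). Grk4 rose 1.48-fold (adjusted p = 0.00261). Grk3, the receptor kinase linked to odorant receptor desensitization, was called lower (-0.75 log2, adjusted p = 0.00216), with both sorts under the background.

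Of the exchangers, Slc8a1 had the largest rise. The clean air GFP- arrays read 11.25, 10.83, 11.34 and 11.40 log2 and the GFP+ arrays 12.56, 12.11, 12.54 and 12.70 log2. The octanoic acid arrays read 11.46, 10.79, 11.37 and 11.05 log2 in GFP- cells and 12.43, 12.32, 12.09 and 12.07 log2 in GFP+ cells. No GFP+ array reached down to a GFP- array. The difference was 1.27 ± 0.05 log2 in clean air (SD, n = 4, 2.41-fold, adjusted p = 0.000116), with pools between 1.20 and 1.31 log2. With octanoic acid it was 1.06 ± 0.34 log2 (SD, n = 4, 2.08-fold, adjusted p = 0.000453), with pools between 0.72 and 1.53 log2. Of all genes 1.85% had as high a difference over both treatments.

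Slc24a4 rose in clean air, while with octanoic acid its pools were uneven. Its clean air values were 12.88, 12.60, 13.07 and 12.61 log2 in GFP- cells and 13.84, 13.35, 13.84 and 13.61 log2 in GFP+ cells, without overlap. The difference there was 0.87 ± 0.13 log2 (SD, n = 4, 1.83-fold, adjusted p = 0.00437). With octanoic acid the GFP- arrays read 13.34, 12.59, 12.58 and 13.00 log2 and the GFP+ arrays 13.44, 13.47, 12.62 and 13.72 log2, and these groups overlapped. Pools 1 and 3 differed by 0.10 and 0.04 log2 and pools 2 and 4 by 0.89 and 0.72 log2, so that the mean of 0.43 ± 0.43 log2 (SD, n = 4) did not pass (adjusted p = 0.115). Without pool 3, whose GFP+ array stood apart, it was 0.57 log2 and did not pass either (adjusted p = 0.074). The difference between the treatments was itself not called, at -0.43 log2 with a 95% confidence interval of -0.97 to 0.10 log2 (adjusted p = 0.94). With each array centred on its median the octanoic acid value was 0.74 log2 and passed (adjusted p = 0.00804), the only 1 of 19 settings where it did. That centring called 7791 genes higher with octanoic acid, against 1221 on the deposited scale.

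Slc8a3 was under the background on every array, so its values bound rather than measure it. It read 4.57, 4.55, 4.60 and 4.66 log2 in GFP- cells and 5.51, 5.13, 5.20 and 5.08 log2 in GFP+ cells of clean air. For octanoic acid the 4 GFP- arrays read 4.63, 5.07, 4.78 and 4.65 log2 and the GFP+ arrays 4.95, 5.17, 5.25 and 4.57 log2. The groups were apart in clean air, by 0.64 ± 0.22 log2 (SD, n = 4, adjusted p = 0.0145), and overlapped with octanoic acid, where the difference was 0.20 ± 0.24 log2 (SD, n = 4, adjusted p = 0.412). No fold is given, and the clean air call was lost without clean air pool 1 (0.0903), 2 (0.0504) or 3 (0.0502) and when arrays were centred on the odorant receptor genes (0.134). With values floored at the background its difference was 0.00 log2. The call over both treatments was lost with that floor and with receptor centring (0.0783). With octanoic acid the difference was 0.11 log2 without pool 3. With arrays centred on their median it was 0.51 log2 and passed (adjusted p = 0.0219), the only 1 of 18 settings where it did.

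Among 14 other measured calcium transporters 3 rose and 2 fell over both treatments, against 13.1% and 13.6% of all genes, with a median of 0.18 log2, and 6 were above the background. Slc24a2, a relative of Slc24a4, rose 1.55-fold (0.63 log2, adjusted p = 0.000904), and Atp2b1, a plasma membrane calcium pump, rose 1.34-fold (0.42 log2, adjusted p = 0.0235). Atp2a3, a pump of the endoplasmic reticulum known from blood cells, fell 24.9-fold (-4.64 log2, adjusted p = 1.66e-09). Of 22 measured genes for calmodulin, its kinases and other calcium sensors, 3 rose and 5 fell, with a median of 0.10 log2, near the 13.1% and 0.12 log2 of all genes for those that rose and for the median. Calb2, the calcium buffer calretinin, fell 21.8-fold (-4.45 log2, adjusted p = 2.17e-09), and the calcineurin subunit Ppp3ca fell 1.86-fold (adjusted p = 0.000314). Camk1d was called lower (-0.77 log2, adjusted p = 0.0036), but both sorts were at the background. The kinase Camk2a rose 1.42-fold (adjusted p = 0.0227) and the sensor Ncs1 rose 1.44-fold (adjusted p = 0.043). Hpcal4 rose at least 1.23-fold (adjusted p = 0.0328).

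Ckb was far above the background in both sorts and higher in GFP+ cells of every pool. In clean air its GFP- values were 16.42, 16.61, 16.80 and 16.19 log2 and its GFP+ values 17.39, 17.44, 17.37 and 17.33 log2. The 4 octanoic acid pools read 16.63, 16.34, 16.60 and 16.68 log2 in GFP- cells and 17.09, 17.34, 16.83 and 17.23 log2 in GFP+ cells. The sorts were apart in both treatments, by 0.88 ± 0.24 log2 in clean air (SD, n = 4, 1.84-fold, adjusted p = 0.00293) and by 0.56 ± 0.32 log2 with octanoic acid (SD, n = 4, 1.47-fold, adjusted p = 0.0378). The octanoic acid call was lost without octanoic acid pool 1 (0.081), 2 (0.126) or 4 (0.109) and without clean air pool 1 (0.057) or 2 (0.0574), and with values floored at the background (0.053). In GFP+ cells the SD was 0.04 log2 in clean air and 0.22 log2 with octanoic acid. Of 6 other measured genes of creatine use, 2 rose and 1 fell over both treatments, against 13.1% and 13.6% of all genes. The median of this list was 0.33 log2 against 0.12 log2 over all genes. Those that rose were the creatine transporter Slc6a8, 1.58-fold (0.66 log2, adjusted p = 0.00113), and the mitochondrial kinase Ckmt1, 1.39-fold (0.48 log2, adjusted p = 0.0374). The gene that fell was the synthesis enzyme Gatm, under the background in both sorts.

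Counted together, 6 of the 7 measured genes were called higher and 1 lower in clean air, and 4 higher and 1 lower with octanoic acid. The octanoic acid count was 2 higher without octanoic acid pool 1 or 4 or clean air pool 1 or 2, where Pde4a and Ckb both dropped out. It was 3 higher without octanoic acid pool 3 or clean air pool 3, where Pde4a dropped out, and without octanoic acid pool 2, where Ckb did. Only without clean air pool 4 did it stay at 4. In the mean over both treatments 6 were higher and 1 lower, where 13.1% and 13.6% of all genes were, and the median of the 7 was 0.65 log2 against 0.12 log2 over all genes. The sixth gene is Slc8a3, under the background throughout. Over both treatments the count was 5 with the filter on the background, with values floored at it and with receptor centring. In clean air it was 5 in these settings and without clean air pool 1, 2 or 3, where Slc8a3 was not called. Without clean air pool 4 it was also 5, and there the gene lost was Pde4a (limma adjusted p = 0.0511). GFP+ arrays all lay above GFP- arrays for 6 genes in clean air and 4 with octanoic acid, which was so for 9.82% and 7.25% of all genes, and all below them for Rgs2 in both treatments, as for 10.7% of all genes in each. An exact sign-flip test of the 8 pool differences, two-sided, gave p = 0.00781 for 6 genes, the smallest it can give, since all 8 pools ran one way. For Slc8a3, higher in 7 of 8 pools, the exact p was 0.0156.

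**Figure D3:**
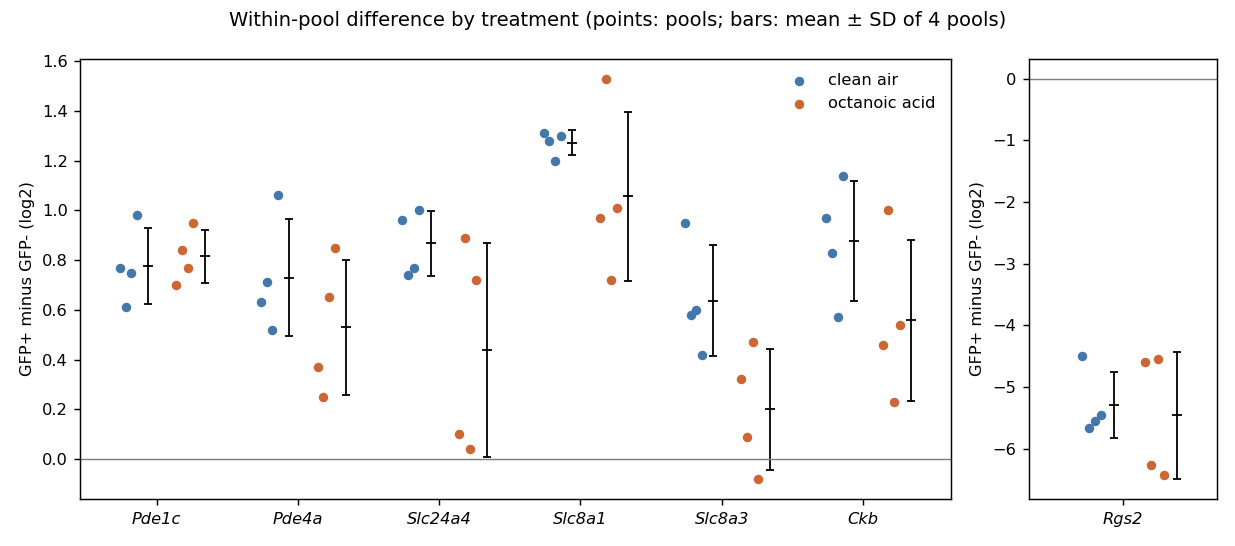
The difference GFP+ minus GFP- of the same pool (y axis, log2) is shown for each measured gene, 1 point per pool, blue for clean air and orange for octanoic acid, with the mean and SD of 4 pools in black beside them. Slc8a1 pools of clean air sit between 1.20 and 1.31 log2, while Slc24a4 with octanoic acid splits into pools at 0.04 and 0.10 and pools at 0.72 and 0.89 log2; Rgs2 has its own axis.

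The differences of Slc24a4, Slc8a1 and Ckb went up and down together from pool to pool, a set of genes singled out after all relations were computed. In octanoic acid pools 1 to 4 they were 0.10, 0.89, 0.04 and 0.72 log2 for Slc24a4, 0.97, 1.53, 0.72 and 1.01 log2 for Slc8a1 and 0.46, 1.00, 0.23 and 0.54 log2 for Ckb, lowest in pool 3 and highest in pool 2 for all 3 genes. Over the 8 pools Slc24a4 and Ckb had r = 0.869 (exact permutation p = 0.000223) and rho = 0.952 (exact permutation p = 0.00114). Slc8a1 and Ckb had r = 0.895 (exact permutation p = 0.00268) and rho = 0.929 (exact permutation p = 0.00223). Slc24a4 and Slc8a1 had r = 0.851 (exact permutation p = 0.00345) and rho = 0.881 (exact permutation p = 0.00724). Over 51 relations computed, between 6 genes and with 6 reference measures, the Benjamini-Hochberg values were 0.0114, 0.0352 and 0.0352. Without the 2 pools farthest from the median r was 0.883, 0.855 and 0.558, so the last relation rests on those pools. Without octanoic acid pool 3 alone it was 0.777, 0.82 and 0.721. With the treatment means taken out first, r was 0.807, 0.867 and 0.814; each treatment has too few pools for values of its own.

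The mean difference over the odorant receptor genes moved with the same pools. It was -0.17, 0.33, -0.35 and -0.07 log2 in octanoic acid pools 1 to 4 and -0.03, 0.12, -0.12 and 0.34 log2 in clean air pools 1 to 4. It had r = 0.914 with Ckb (exact permutation p = 0.00146, adjusted 0.0352, rho = 0.952 with exact permutation p = 0.00114, 0.791 without the 2 farthest pools). With Slc8a1 r was 0.869 (exact permutation p = 0.00422, adjusted 0.0358, rho = 0.857 with exact permutation p = 0.0107, 0.662 without the 2 farthest pools). With Slc24a4 r was 0.771 and did not pass (exact permutation p = 0.0277, adjusted 0.15, rho = 0.833 with exact permutation p = 0.0154, 0.558 without the 2 farthest pools). The mean of the mature neuron genes had r of 0.707 with Slc24a4, 0.691 with Slc8a1 and 0.76 with Ckb, none past the correction. When each array was centred on its receptor genes, r fell to 0.654 for Slc24a4 with Ckb, 0.408 for Slc8a1 with Ckb and 0.518 for Slc24a4 with Slc8a1. Centred on the median of all genes, the 3 values were 0.868, 0.878 and 0.85. The differences of Pde1c and Pde4a had r between -0.146 and 0.385 with the 3 genes, none past the correction. Of the 51 relations 7 passed it, the 5 above and these: Ckb with the mean of the immature neuron genes, r = 0.851 (exact permutation p = 0.00675, adjusted 0.0491, rho = 0.81 with exact permutation p = 0.0218, 0.676 without the 2 farthest pools), and Rgs2 with the mean of the transduction cascade, r = -0.897 (exact permutation p = 0.00298, adjusted 0.0352, rho = -0.762 with exact permutation p = 0.0368, -0.848 without the 2 farthest pools). S100a5 itself had r between -0.743 and 0.564 with the 6 genes, none past the correction; the lowest was Pde4a (exact permutation p = 0.0349, adjusted 0.162, rho = -0.81 with exact permutation p = 0.0218).

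No effect of octanoic acid on any of the 7 genes was called. The question has 3 forms: whether the difference between the sorts changed, and whether GFP+ or GFP- cells changed. The share of all genes called was 0.0% in each, with smallest adjusted p of 0.94, 0.955 and 0.985, while 871, 716 and 741 genes had an unadjusted p under 0.05 in limma's fit. The difference between the sorts was smaller with octanoic acid for 5 of the 6 genes that rose in clean air, from -0.44 log2 for Slc8a3 and -0.43 for Slc24a4 through -0.32 for Ckb, -0.21 for Slc8a1 and -0.20 for Pde4a, and it was 0.04 log2 for Pde1c. Rgs2 differed by -0.17 log2. Without octanoic acid pool 3 the change was -0.10 log2 for Slc8a1, -0.21 for Ckb, -0.30 for Slc24a4, -0.47 for Rgs2 and 0.06 for Pde1c. For Pde4a and Slc8a3 it was larger without that pool, at -0.24 and -0.53 log2. Reassigning 4 of the 8 pools, two-sided, gave an exact permutation p of 0.0571 for Slc8a3, 0.114 for Slc24a4 and 0.2 or more for the others, and 0.0286 is the smallest this test can give.

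The intervals say how large an effect of the odorant the data leave room for. For Pde1c, the narrowest, the 95% confidence interval of the change between treatments ran from -0.39 to 0.46 log2, and for Rgs2, the widest, from -1.18 to 0.85 log2. In GFP+ cells Ckb differed by -0.26 log2 (-0.61 to 0.09), Slc24a4 by -0.35 log2 (-0.88 to 0.18) and Slc8a1 by -0.25 log2 (-0.64 to 0.14), while Pde1c and Pde4a differed by -0.03 and 0.00 log2. Without octanoic acid pool 3, whose GFP+ array stood apart, Slc24a4 differed by -0.12 log2 and Ckb by -0.16 log2 in GFP+ cells, and Slc8a1 by -0.20 log2. In GFP- cells the 7 differences lay between -0.07 log2 for Pde1c and 0.21 log2 for Pde4a. The groups of the 2 treatments overlapped for every gene in all 3 comparisons.

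**Figure D4:**
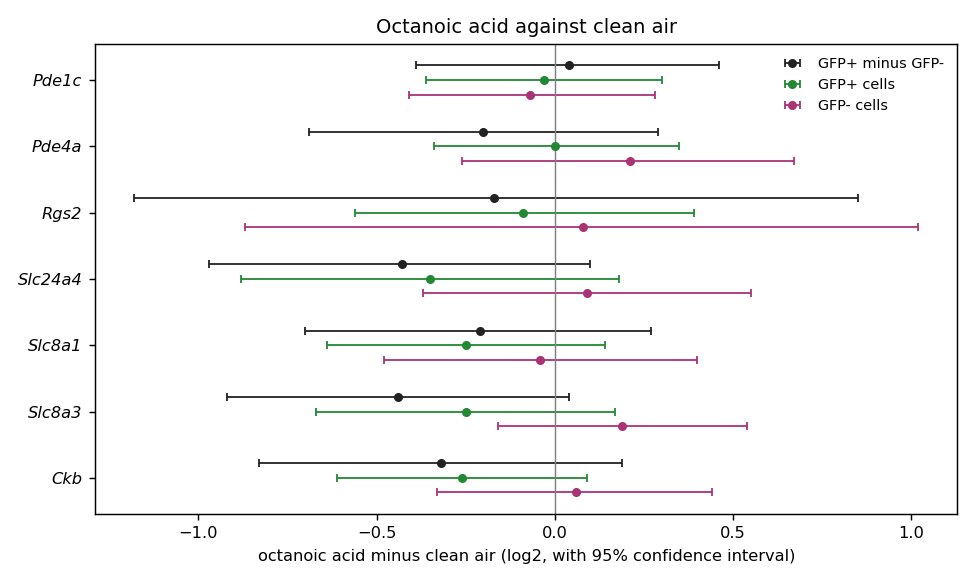
Octanoic acid minus clean air (x axis, log2) is shown for each measured gene with its 95% confidence interval from limma, for the difference between the sorts in black, GFP+ cells in green and GFP- cells in purple. All 21 intervals include 0, and that of Rgs2 is the widest for the difference between the sorts and for GFP- cells, while that of Slc24a4 is the widest for GFP+ cells.

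The genes that start and carry the response were examined in the same way. Of 12 measured genes of the transduction cascade 3 rose over both treatments and none fell, against 13.1% and 13.6% of all genes, with a median of 0.17 log2 against 0.12 log2 over all genes: the chloride channel Ano2 rose 1.42-fold (adjusted p = 0.00181), the cyclase Adcy3 1.27-fold (adjusted p = 0.0275) and the G-protein subunit Gng13 1.25-fold (adjusted p = 0.0278). Of 6 measured subunits of protein kinase A, the target of cyclic AMP, 1 rose, Prkaca, 1.32-fold (adjusted p = 0.0223). Of 7 activity-dependent genes 6 rose, with a median of 1.13 log2. S100a5, the gene behind the reporter and thus behind the sort, rose 2.68-fold (1.42 log2, adjusted p = 8.42e-06, higher in 8 of 8 pools), Lrrc3b 3.63-fold (adjusted p = 2.8e-07) and Pcp4l1 3.18-fold (adjusted p = 3.3e-06). Of 18 immediate early genes, which respond within minutes, 15 fell and none rose, Egr2 78.0-fold, Fos 66.8-fold and Egr1 53.0-fold.

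**Figure D5:**
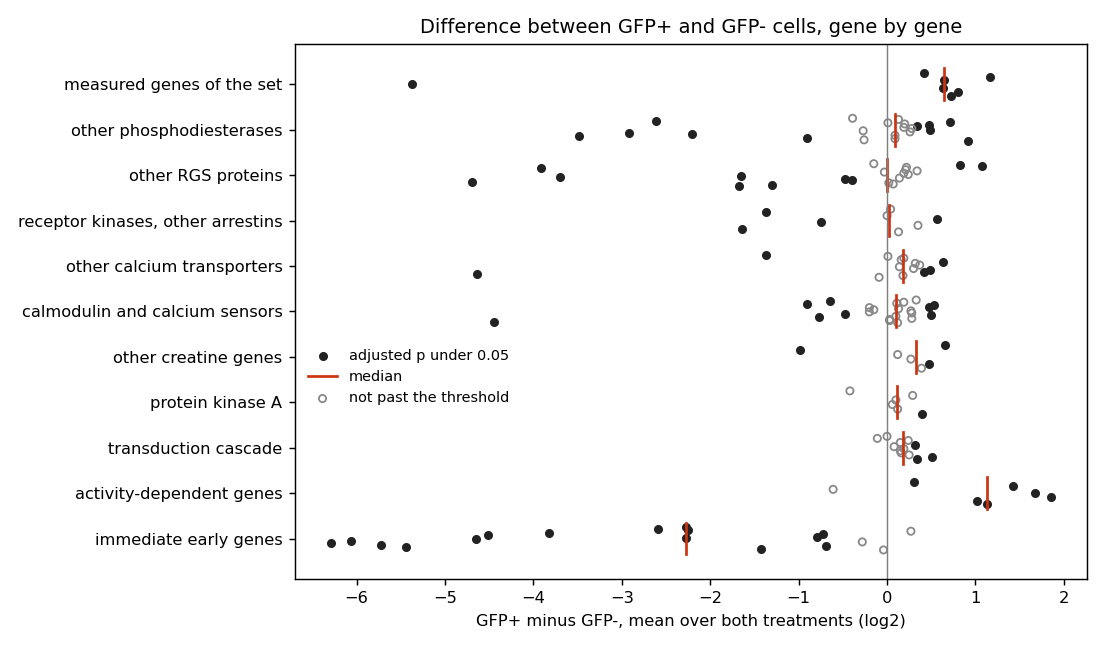
The difference GFP+ minus GFP- over both treatments (x axis, log2) is shown for each measured gene of 11 lists, filled where the adjusted p was under 0.05 and open otherwise, with the list median in red. The measured genes of shut-off and calcium extrusion lie between 0.42 and 1.16 log2 apart from Rgs2 at -5.37 log2, and their families spread to both sides of 0.

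Across the 16 arrays, the genes most like each member were searched among 11340 named genes above the background by Pearson's r of the log2 signal, as a description in which the 2 sorts and the shared array set most of the likeness. For Rgs2 they were Ly6c1 (0.994), the neutrophil receptor gene Csf3r (0.994) and the leukocyte gene Cd37 (0.993). For Slc8a1 the first was Pcp4l1 (0.959), a gene of the activity-dependent list, followed by the receptors Olfr350 (0.949) and Olfr147 (0.944). Pde1c was most like Adam28 (0.973), Olfr281 (0.966) and Olfr1264 (0.965), and Pde4a like Olfr701 (0.971), Tshz2 (0.959) and Kcnc4 (0.958). Slc24a4 was most like Zmat3 (0.973), Mapk4 (0.967) and Pcsk7 (0.954), and Ckb like Rfx4 (0.964), Olfr1480 (0.951) and Olfr1419 (0.946). Slc8a3, under the background throughout, reached only 0.854 with Olfr988, 0.853 with S100a13 and 0.85 with Ttc39d.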

How the data were processed

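The deposited table holds log2 signals, 1 value per probe set and array, which the authors made with Affymetrix Expression Console, per the submitters' processing notes; its version, summary method and background step are not given in the sources used here. RNA of 50 to 100 ng per sample was labelled, per the labels' protocols. Of 28846 probe sets, 6640 are controls and 19572 name 1 gene; 2634 without 1 name were left out, and the brightest probe set of a gene was kept, giving 19505 genes. The background, 6.20 log2, varied from 5.80 to 6.77 between arrays; because 5% of negative controls exceeded 10.4 log2, a gene above the background need not be expressed. A fold is a lower bound where the mean of its dimmer group did not exceed the background by 1 SD.

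The 8 within-pool differences, log2 GFP+ minus log2 GFP-, were tested by treatment, over both treatments and between them, and so were the GFP+ and GFP- arrays between treatments, 4 against 4, with lmFit and eBayes of limma 3.58.1 under R 4.3.3, two-sided. All genes were fitted and adjusted together by Benjamini-Hochberg at 0.05. Within-pool pairing follows from the labels, since the same 3 mice gave both sorts. The fit was tested on simulated data. Exact permutation tests ran through every arrangement with numpy 2.4.6 under Python 3.11.15, with the ranks for rho from scipy 1.17.1.

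The genes and lists were chosen with earlier results of these data known. Named list genes are those past 0.05 over both treatments with the 3 largest rises and falls, above the background in at least 1 group. Grk3 and Gatm, under it, were named outside this rule after their values were seen. Arrb2 and 15 list genes without a matching probe set were not analysed here.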

Additional observations from a re-analysis of the deposited data

How the results depend on the processing

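Without a pool at a time, with other scalings, filters and floors, Pde1c, Slc8a1 and Rgs2 kept their direction and call in all 19 settings of each enrichment, with Pde1c at 0.76 to 1.08, Slc8a1 at 1.09 to 1.45 and Rgs2 at -5.53 to -2.95 log2 over both treatments. Leaving out 1 pool gave 619 to 1282 genes higher in clean air (619 without clean air pool 4), 621 to 1310 higher with octanoic acid (621 without octanoic acid pool 4) and 2 to 4 of the 7 genes higher with octanoic acid. Centring arrays on their median moved the median of all genes over both treatments from 0.12 to 0.41 log2 and called 6082, 7791 and 12174 genes higher (clean air, octanoic acid, both) against 1571, 1715 and 2023 lower; the deposited scale gave 1138, 1221 and 2555 against 1868, 2126 and 2651. Quantile normalization called 1813, 2587 and 4621 higher, and centring on receptor genes 732 in clean air and 1697 over both. With values floored at the background, 1144 genes were lower in clean air, 693 higher and 1395 lower with octanoic acid, 1582 higher over both, and 1 gene was called for the odor effect. Without octanoic acid pool 3 and clean air pool 4 together, chosen after the data were seen (the second for its GFP- array, with the lowest mature neuron mean, 16.63 log2 against 16.89 to 16.93 log2), 681 were higher in clean air. No odor call on the 7 genes arose in any setting. Centring on receptor genes turned the sign in GFP+ cells for Pde1c (0.02) and in GFP- cells for Rgs2 (-0.02), Slc24a4 (-0.01) and Ckb (-0.04); without those 2 pools it turned in GFP+ cells for Pde1c (0.04) and Rgs2 (0.02) and in GFP- cells for Ckb (-0.06); floored, Slc8a3 was 0.00. Leaving out 1 pool, the odor effect on the difference ran from -0.02 to 0.11 for Pde1c and from -0.47 to 0.16 for Rgs2. In GFP+ cells it ran from -0.08 to 0.02 for Pde1c, -0.06 to 0.07 for Pde4a and -0.24 to 0.06 for Rgs2. In GFP- cells it ran from -0.31 to 0.34 for Rgs2, -0.07 to 0.19 for Slc24a4, -0.16 to 0.09 for Slc8a1 and -0.05 to 0.15 for Ckb. The cause was not tested. With the replicate number of the labels as a replicate block pairing odor and vehicle pools, 0 genes were called and the odor effects were the same, such as -0.43 for Slc24a4 (adjusted p = 0.818). Deviations of same-numbered pools had r of 0.1 to 0.237 in the differences and -0.0986 to 0.408 in GFP- cells. With no replicate block, thus without the pool, 3 of the 7 genes were higher with octanoic acid, Pde4a having an adjusted p of 0.0596. Signals near the background limit what can be said of Slc8a3 and of Rgs2 in GFP+ cells.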
